A study of Mus musculus with 2 samples.

Results

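Adipokines are hormones and secreted proteins released mainly by fat cells. The genes described here are those of 6 adipokines, Lep, Adipoq, Retn, Cfd, Rarres2 and Nampt, and of 3 adipokine receptors, Lepr, Adipor1 and Adipor2. They were taken by name, by a rule that holds no measured value, though earlier results of these data were known when the set was drawn up. The rule took every spot that is not a control and carries the gene's symbol or its older name on the array, which for Nampt was Pbef1. This gave 35 of 43379 spots and 17 of 41174 probes, and all 9 genes had at least 1 probe.

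The RNA came from subcutaneous tumours grown from Panc02, a mouse pancreatic cancer cell line, in C57BL/6 mice. The mice were put at 3 weeks of age into an enriched environment, housing that offers more stimulation, or into a standard environment, ordinary laboratory housing, and carried the tumours for 5 weeks in the same housing. Both groups received the same tumour cells, so no group was free of tumour. Tumour RNA of 6 mice per housing was combined into a pool, and 1 array labelled with a single dye was run for each pool. The spread between mice was therefore not measured, no test compares the housings, and precision is limited by having 1 array each. Whole tumours were homogenised, so more cells of a type and more RNA per cell cannot be told apart.

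Leptin, the product of Lep, reports the size of fat stores to the brain through its receptor Lepr, which signals through the kinase Jak2 and the transcription factor Stat3 and induces the feedback inhibitor Socs3. Adiponectin, from Adipoq, acts on Adipor1 and Adipor2 and raises fat oxidation through AMP-activated protein kinase. Resistin, from Retn, is made by adipocytes in mice. Cfd encodes adipsin, or complement factor D, the protease that starts the alternative complement pathway, and Rarres2 encodes chemerin, a chemoattractant. Nampt is the rate-limiting enzyme of NAD salvage and is also found outside cells, where it has been called visfatin.

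A level here means log2 of a probe's processed intensity after division by the array's 75th percentile. Differences are levels in the enriched environment pool minus levels in the standard environment pool. Levels of different probes are not compared. As a scale for technical error, the differences of probes for the same gene had an SD of 0.17 at the median of 6609 genes. Probes spotted many times had a median SD between spots of 0.06 on the enriched environment array and 0.05 on the standard environment array. None of this covers the spread between mice.

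Of the 6 adipokine genes, 5 were at least 2-fold higher in the enriched environment pool, namely Lep, Cfd, Retn, Adipoq and Rarres2. Nampt was not, and none of the 3 receptor genes was higher by that much, Lepr being 2.19-fold lower. Among all 20859 genes that both arrays measured, 5.70% reached 2-fold in the higher direction and 9.46% in the lower, and the median difference was 0.03. At 1.5-fold, which the same 5 adipokine genes passed upward and Lepr and Adipor1 downward, the shares of all genes were 15.0% and 18.2%. Lep was measured on the enriched environment array only, where 13.3% of such genes had a bound of at least 2-fold. The median difference was 2.68 over the 6 adipokines, with Lep at its bound, and -0.81 over the 3 receptors.

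**Figure D1:**
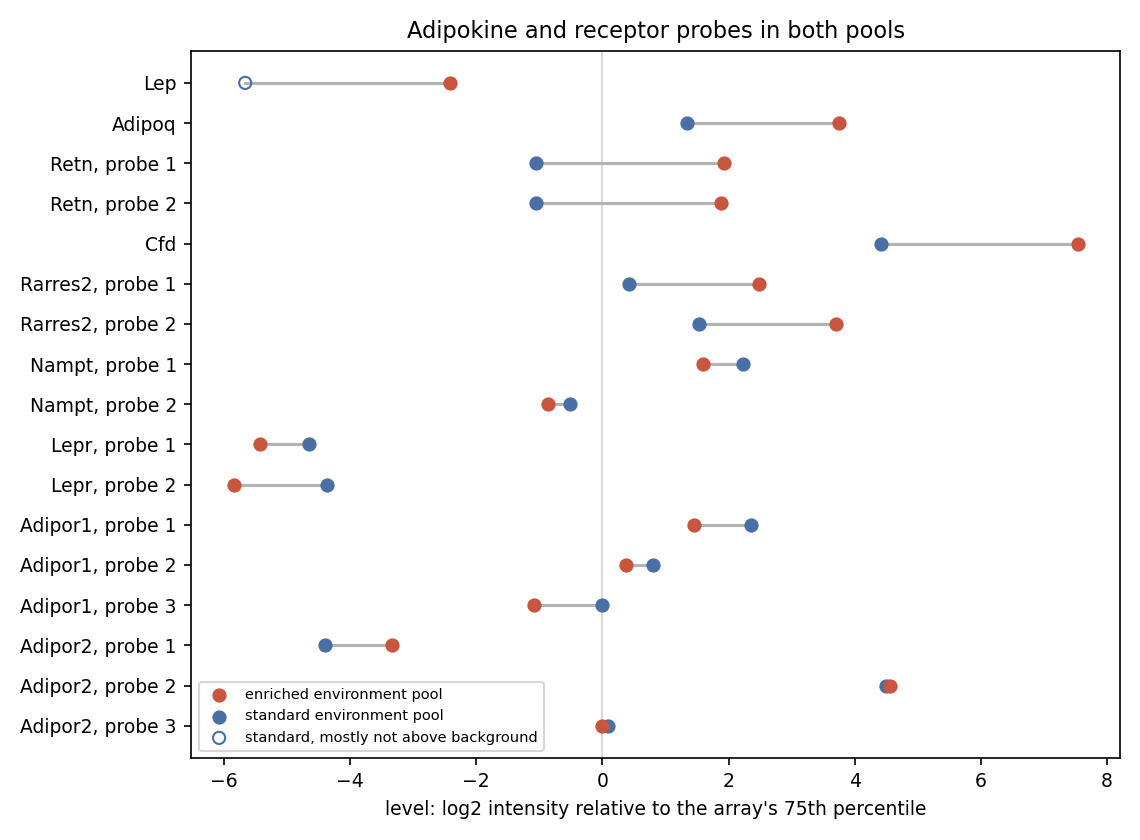
Levels of the 17 probes of the adipokine and receptor genes, on the log2 scale described above, in the enriched environment pool (red) and the standard environment pool (blue), 1 array each. The hollow circle is the standard environment level of Lep, where 4 of 9 usable spots were well above background. The probes of Lep, Adipoq, Retn, Cfd and Rarres2 lie to the right in the enriched environment pool, while those of Nampt, Lepr and Adipor1 lie to the left.

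The promoters of these genes, from 250 bases before to 50 bases after the transcription start, are shown because the 5 adipokine genes differed in the same direction and Nampt did not. Of the 9 genes, 8 had an entry in the RefSeq promoter table of build GRCm38.p6, all but Rarres2. Capitals mark matches on either strand to 4 motifs, TTGCNNAA (the C/EBP type, bound by regulators of fat cell genes), TATAA (the core of the TATA box), CCAAT (the CCAAT box) and GGGCGG (the GC box). The sequences run along the strand of the gene, Lep at chr6:29059971-29060270, Adipoq at chr16:23146286-23146585, Retn at chr8:3655520-3655819, Cfd at chr10:79890603-79890902 and Nampt at chr12:32820085-32820384, all on the plus strand.
Lep: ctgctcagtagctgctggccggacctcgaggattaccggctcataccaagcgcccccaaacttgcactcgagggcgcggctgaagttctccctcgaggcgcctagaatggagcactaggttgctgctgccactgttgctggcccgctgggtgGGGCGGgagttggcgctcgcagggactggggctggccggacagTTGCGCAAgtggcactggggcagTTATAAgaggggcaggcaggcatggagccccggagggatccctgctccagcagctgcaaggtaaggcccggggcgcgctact
Adipoq: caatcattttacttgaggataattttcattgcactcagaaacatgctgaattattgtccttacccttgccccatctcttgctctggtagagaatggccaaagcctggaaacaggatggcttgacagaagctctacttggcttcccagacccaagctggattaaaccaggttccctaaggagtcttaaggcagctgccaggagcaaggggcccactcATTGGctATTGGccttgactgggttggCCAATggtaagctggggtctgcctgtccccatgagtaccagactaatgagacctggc
Retn: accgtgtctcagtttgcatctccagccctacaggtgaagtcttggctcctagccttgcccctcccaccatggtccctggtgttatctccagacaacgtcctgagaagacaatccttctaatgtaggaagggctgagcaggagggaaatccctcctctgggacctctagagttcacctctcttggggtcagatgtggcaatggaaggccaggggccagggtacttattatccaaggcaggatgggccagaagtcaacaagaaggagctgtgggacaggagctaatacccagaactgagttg
Cfd: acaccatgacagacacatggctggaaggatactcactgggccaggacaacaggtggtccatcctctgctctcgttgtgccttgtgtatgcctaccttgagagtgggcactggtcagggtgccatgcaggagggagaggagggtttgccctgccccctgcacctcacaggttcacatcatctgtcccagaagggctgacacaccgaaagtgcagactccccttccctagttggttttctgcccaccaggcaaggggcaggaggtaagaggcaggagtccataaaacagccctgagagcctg
Nampt: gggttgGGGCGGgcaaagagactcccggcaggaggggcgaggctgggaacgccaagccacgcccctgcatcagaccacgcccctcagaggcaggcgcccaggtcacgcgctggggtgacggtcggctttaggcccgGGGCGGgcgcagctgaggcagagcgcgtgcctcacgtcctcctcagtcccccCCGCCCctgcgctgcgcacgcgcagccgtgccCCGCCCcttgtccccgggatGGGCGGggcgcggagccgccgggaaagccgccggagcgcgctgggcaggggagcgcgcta

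The Lep promoter held a TTGCNNAA match that begins at position -55 from the start, a GC box, and a pair of overlapping TATAA matches on opposite strands, the first of which begins at -32. The Adipoq promoter held 3 CCAAT matches and none of the other motifs. No match to any of the 4 motifs lay in the windows of Retn and Cfd, which says only that these letters are not there, and Nampt held 5 GC boxes. Among the receptors, the second start of Lepr also held a TTGCNNAA match, at position 19, and a GC box, and its first start held 1 CCAAT match. The first start of Adipor1 held 2 CCAAT matches and 2 GC boxes, the second start 3 GC boxes, and Adipor2 none of the 4 motifs. TTGCNNAA occurs in 10.8% of the 32851 promoters of this length in the table, TATAA in 24.9%, CCAAT in 37.4% and GGGCGG in 35.7%. The count of CG dinucleotides, which was not used to choose the genes, was 19 for Lep, 0 for Adipoq, 2 for Retn and 2 for Cfd. It was 36 for Nampt, 41 for Adipor2, 21 and 40 for both starts of Adipor1 and 18 and 13 for both starts of Lepr, against a median of 7 over all promoters. The motif matches and counts are descriptions of sequence, and binding was not measured.

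Lep was far brighter in the enriched environment pool. Its probe, on chromosome 6 from 29005380 to 29005439 on build mm7, the build of all probe positions given here, was spotted 10 times. Whether probes lie in coding exons or untranslated regions was not analysed here. Processed intensities ran from 169 through a median of 186 to 199 over 10 spots of the enriched environment array, all well above background, and from 5.96 through a median of 15.5 to 31.0 over 9 usable spots of the standard environment array, of which 4 were well above background. The usable spots of the arrays did not overlap, which describes repeat spots of 1 probe and not mice. A 10th standard environment spot read 171, was marked by the scanner software as an outlier among its repeats, and was left out. The mean level was -2.41 (SD 0.07 over 10 spots) in the enriched environment pool and -5.66 (SD 0.66 over 9 spots) in the standard environment pool. The log2 bound for Lep was 3.25, or 9.52-fold higher in the enriched environment pool. Here the bound equals the measured difference. The standard environment level lay just above the lowest level well above background there, -5.68, so the bound is not a firm minimum. With the outlier spot kept the bound was 2.90. With normexp, a correction that models background and here adds 50 to every spot, it was 1.32.

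**Figure D2:**
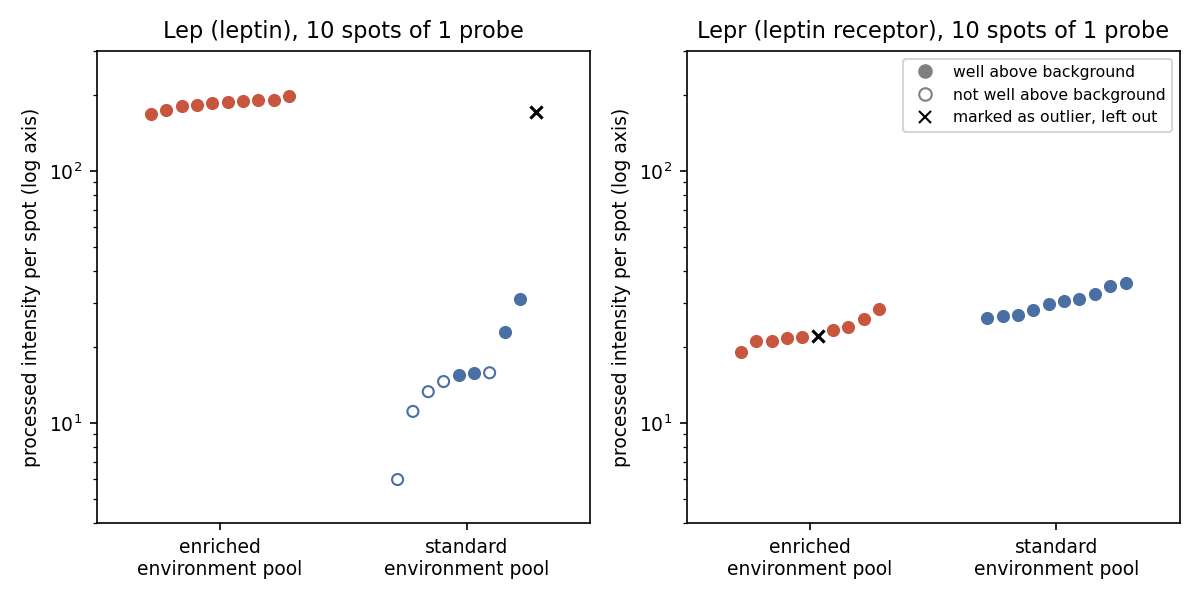
Processed intensity (log axis) of the 10 spots of the Lep probe (left) and of the 10-spot Lepr probe (right) in the enriched environment pool (red) and the standard environment pool (blue), 1 point per spot in order of brightness. Hollow points were not well above background and crosses were marked as outliers and left out. Lep spots sit between 169 and 199 in the enriched environment pool and, the outlier apart, between 5.96 and 31.0 in the standard environment pool, and the unscaled Lepr intensities of both pools overlap between 26.1 and 28.4.

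Cfd had the largest difference among the adipokine genes measured on both arrays. Its single probe, on chromosome 10 from 79672573 to 79672632, read 182256 in the enriched environment pool and 16118 in the standard environment pool, without saturation. The levels were 7.53 and 4.42 in the same order, a difference of 3.11 or 8.65-fold, with an error of 0.20 by the scanner software's own error model. This placed Cfd at rank 35 from the top of the 20859 genes.

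Resistin and adiponectin transcripts were also higher in the enriched environment pool. For Retn, 1 probe read 3729 in the enriched environment pool and 364 in the standard environment pool, and the other read 3631 and 361. The probes, on chromosome 8 from 3618557 to 3619378 and from 3618519 to 3619340, have overlapping positions that each span 822 bases of the genome. How many bases the probes share was not analysed, and they are not counted as independent. Their differences of 2.97 and 2.94 gave a mean of 2.96, or 7.76-fold, at rank 48 from the top. The single Adipoq probe, on chromosome 16 from 22816125 to 22816184, read 13222 in the enriched environment pool and 1913 in the standard environment pool. Its difference was 2.40, or 5.29-fold, with a software error of 0.20.

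Chemerin followed the same direction. The Rarres2 probe on chromosome 6 from 48530340 to 48530399 read 5490 in the enriched environment pool and 1007 in the standard environment pool. The other, from 48529826 to 48530020, read 12883 and 2181 in the same order. The mean difference was 2.12 (SD 0.08 between probes), or 4.34-fold. Cfd, Retn, Adipoq and Rarres2 all lay above 1.51, a difference that 2.5% of all genes exceeded.

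Nampt was the exception among the adipokine genes. Its probe on chromosome 12 from 30690185 to 30690244 read 2956 in the enriched environment pool and 3541 in the standard environment pool. The probe from 30678775 to 30678834 read 539 and 528, which after scaling was also a lower level in the enriched environment pool. The differences of -0.65 and -0.36 averaged -0.50, or 1.42-fold lower with enrichment, which did not reach 2-fold.

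The leptin receptor gene was dim on both arrays. The Lepr probe with 10 spots, on chromosome 4 from 101165774 to 101167275, ran from 19.1 through 21.96 to 28.4 over 9 usable spots in the enriched environment pool and from 26.1 through 30.1 to 36.1 over 10 spots in the standard environment pool. These intensities overlapped, while the scaled levels did not, from -5.69 to -5.11 in the enriched environment pool and from -4.85 to -4.38 in the standard environment pool. The difference was -0.78, and the SD was 0.17 between enriched environment spots and 0.16 between standard environment spots. The spots are repeats of 1 probe on 1 array per pool, so their spread is technical and says nothing about mice. A second probe, from 101189318 to 101189377, read 17.1 in the enriched environment pool and 36.4 in the standard environment pool, a difference of -1.48. The gene mean of -1.13 (SD 0.49 between probes) was past 2-fold, but it was -0.57 with normexp, -0.85 with quantile normalization, -0.78 for the brighter probe and -0.90 in the deposited log2 table. The levels of both probes in the enriched environment pool, -5.43 and -5.85, lay near the lowest level well above background there, -6.21.

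The adiponectin receptor genes were not 2-fold apart. The 3 Adipor1 probes, on chromosome 1 from 134321843 to 134321902, from 134314667 to 134315712 and from 134322833 to 134322892, were all lower in the enriched environment pool. They read 2678, 1277 and 463 there, against 3851, 1320 and 749 for the same probes in the standard environment pool, and gave differences of -0.91, -0.43 and -1.08. The mean was -0.81 (SD 0.34 between probes). For Adipor2, a bright probe on chromosome 6 from 119378346 to 119378405 read 23158 in the enriched environment pool and 17081 in the standard environment pool, a difference of 0.05. A second probe, from 119384625 to 119386974, differed by -0.10. The third, from 119383840 to 119383899, was dim, with 97.3 in the enriched environment pool and 35.5 in the standard environment pool, and differed by 1.07, so the probes of Adipor2 disagree and their mean of 0.34 (SD 0.64) rests on the dim one.

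The partners through which these hormones act were described by lists of named genes. None of the 16 measured genes of leptin signalling was 2-fold apart, and their median was -0.14. The shares of all genes past 2-fold were 5.70% higher and 9.46% lower. Jak2 differed by 0.14, Stat3 by -0.11 and Socs3 by 0.31. The furthest were Cish, a feedback inhibitor of cytokine receptors, at -0.96, the transcription factor gene Stat5b at -0.69, and Foxo1 at -0.59.

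In the adiponectin list, in the enriched environment pool 1 of 19 genes was past 2-fold higher and 4 were past 2-fold lower, and the median was -0.18. Of all genes, 5.70% were higher and 9.46% lower by that much, so the count of higher genes is near the share of all genes. The higher one was Cdh13, T-cadherin, which binds adiponectin at the cell surface, at 1.46, with probes at 0.74 and 2.18. The lower ones were Prkaa2 at -6.70 and Prkab2 at -2.49, an AMP-activated protein kinase catalytic and a regulatory subunit typical of muscle, Ppara, a regulator of fat oxidation, at -3.78, and Gstk1, which is known to help adiponectin assemble, at -1.75. Appl1, an adaptor of the adiponectin receptors, differed by 0.33. Skeletal muscle markers were more than 2-fold lower in the same pool in 18 of 18 genes, with a median of -8.01. They took 0.102% of all probe signal in the enriched environment pool, against 4.69% in the standard environment pool. Ckmt2 and Ckm, creatine kinases, differed by -9.11 and -8.56, and Actn2, a sarcomere protein, by -8.52. Its part in these differences was not tested.

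None of the chemerin receptor genes was 2-fold apart. Cmklr1, the signalling receptor, was at -0.69, or 1.62-fold lower, Gpr1 at -0.18 and Ccrl2, which binds chemerin without signalling, at -0.17. Gpr1 was dim, with levels of -4.81 in the enriched environment pool and -4.62 in the standard environment pool. The lowest levels well above background were -6.21 and -5.68 in the same order. The chemerin list, which also holds proteases, had 7 measured genes. Tmprss2, an epithelial protease, was past 2-fold higher at 1.45 and Ctsg, the cathepsin G gene of granulocytes, past 2-fold lower at -4.67. The shares of all genes measured on both arrays were 5.70% higher and 9.46% lower. For Elane, the neutrophil elastase gene, the standard environment array alone was well above background, which gave a bound of -4.38. Of all such genes, 57.1% had a bound of at least 2-fold.

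The genes related to resistin went the other way. Retnla differed by -1.65 over 2 probes and Retnlg, which is expressed in neutrophils, by -3.67, and Retnlb was not well above background on either array. The proposed resistin receptors Cap1 and Tlr4 differed by 0.37 and 0.10. Dcn, decorin, an isoform of which has been proposed as a resistin receptor in mice, differed by -1.03. The neutrophil marker list, which shares Retnlg and Elane with these lists, had a median of -2.52 over 7 measured genes. Past 2-fold lower were 6 of the 7, against 9.46% of all genes. Elane, Ngp and Camp, above background on the standard environment array only, are not in that median. Their bounds were -4.38, -7.87 and -8.18, and 57.1% of all such genes had a bound of at least 2-fold. Without the filter on dim probes the list median was -3.96. Mpo, myeloperoxidase, was at -6.65 and Mmp8, neutrophil collagenase, at -4.25, while the chemokine receptor gene Cxcr2 was higher, at 1.44. The part of neutrophil RNA in these differences was not tested.

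Of the alternative complement pathway, in which adipsin cleaves factor B, 5 of 13 measured genes were at least 2-fold higher in the enriched environment pool. None was 2-fold lower, and the list median was 0.06. Among all genes, 5.70% were higher and 9.46% lower by that much. Cfi, the complement factor I gene, was at 4.38, Hc, which encodes C5, at 1.75, C3 at 1.52, Cfp, which encodes properdin, at 1.33 and Cfb, factor B, at 1.09. The Cfi level in the standard environment pool was -4.97, near the lowest level well above background there, -5.68.

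NAD salvage and use had a median of 0.00 over 18 genes. Nmrk2, a nicotinamide riboside kinase typical of muscle, differed by -7.45, Nmnat1, the nuclear enzyme that completes salvage after Nampt, by -1.06, and Nnmt, which methylates nicotinamide and is abundant in fat, by 1.98. Nmnat2 at 0.02, Nmnat3 at -0.41 and Sirt1, an NAD-dependent deacetylase, at 0.11 were not 2-fold apart.

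Other secreted proteins counted as adipokines split, with 8 of 29 measured genes past 2-fold higher, 4 past 2-fold lower and a median of 0.42. The shares of all genes were 5.70% higher and 9.46% lower. C1qtnf3, an adiponectin relative, was at 3.74, Angptl4, an inhibitor of lipoprotein lipase, at 2.89, the cytokine gene Il6 at 2.33 and the monocyte attractant Ccl2 at 1.63. Lower were Fndc5, the precursor of the muscle hormone irisin, at -4.80, and the adiponectin relatives C1qtnf9 at -2.07 and C1qtnf7 at -1.83.

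**Figure D3:**
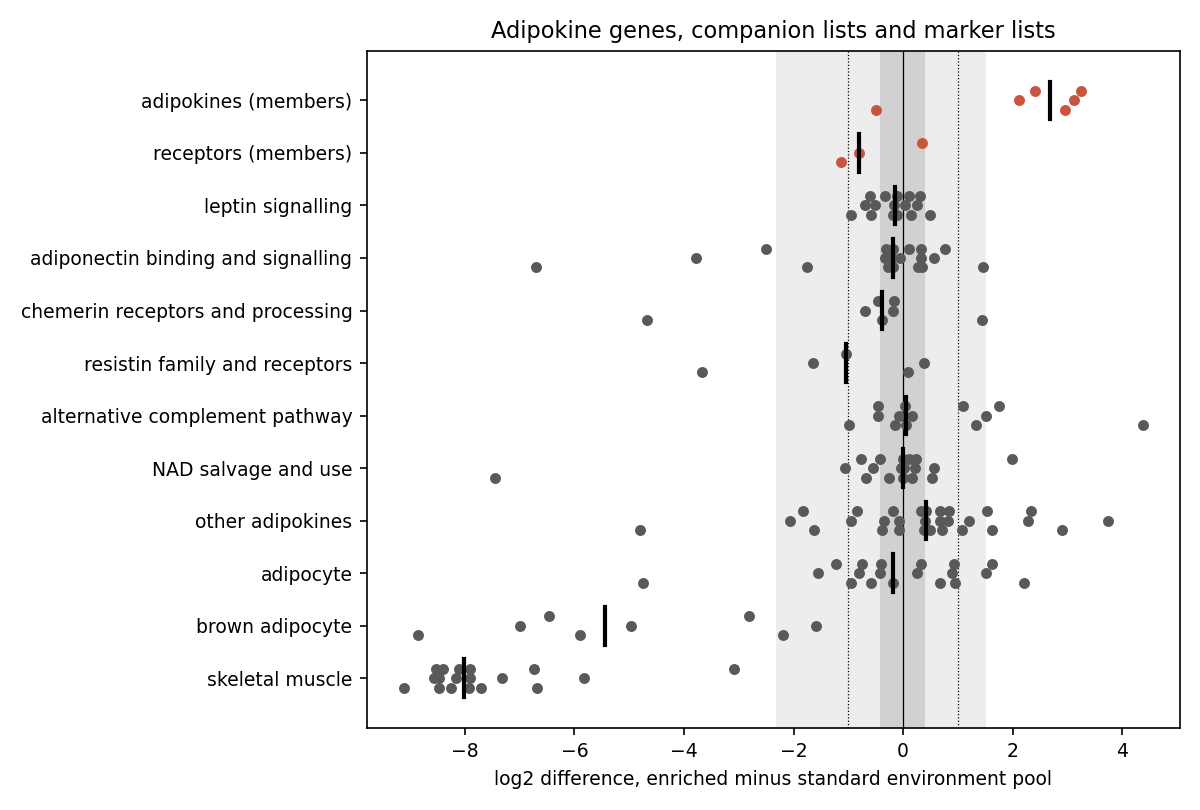
Differences on the log2 scale, enriched minus standard environment pool, for the adipokine and receptor genes (red) and for the genes of companion and marker lists measured on both arrays (grey), 1 point per gene with the median as a black bar. Lep is drawn at its bound, which equals its measured difference. The dark band runs from the 25th to the 75th percentile of all 20859 genes, the light band leaves out 2.5% of them at each end, and dotted lines mark 2-fold. The median is 2.68 for the adipokines, -0.19 for the adipocyte list and -5.44 for the brown adipocyte list.

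General adipocyte genes had no shared direction. Of all genes, 5.70% were past 2-fold higher with enrichment and 9.46% past 2-fold lower. Of 19 measured genes of the adipocyte list, 3 were past 2-fold higher with enrichment and 3 past 2-fold lower, and the median was -0.19. Their share of all probe signal was 0.535% in the enriched environment pool and 0.562% in the standard environment pool. That share includes Slc2a4, a gene of fat and muscle, with levels of 0.69 in the enriched environment pool and 5.45 in the standard environment pool. Whether the share follows the amount of fat was not tested. All 20 genes of the list but Adrb3 were well above background on both arrays. Higher were Cidec, a lipid droplet protein of white fat, with levels of 5.07 in the enriched environment pool and 2.86 in the standard environment pool, a difference of 2.21, the droplet coat gene Plin1 at 1.63, and Pparg, the master regulator of fat cell formation, at 1.51. At any size, 9 of the 19 genes were higher with enrichment and 10 were lower. The genes of the list under 2-fold were added after their values were seen, and all measured ones are given. Lower were Pnpla2 at -0.95, Acsl1 at -0.81, Lpl at -0.75, Agpat2 at -0.59, Dgat2 at -0.42, Cd36 at -0.40 and Mgll at -0.19. On the higher side were Lipe at 0.95, Pck1 at 0.89, Plin4 at 0.68, Scd1 at 0.25, and Cebpa and Fabp4. Cebpa, the C/EBP factor of mature adipocytes, differed by 0.93. Fabp4, the fatty acid carrier of adipocytes, had levels of 5.54 in the enriched environment pool and 5.20 in the standard environment pool, a difference of 0.34 over 3 probes. Past 2-fold lower were Slc2a4, the insulin-responsive glucose transporter of fat and muscle, at -4.76, Gpd1, which makes glycerol phosphate, at -1.55 and the fatty acid synthase gene Fasn at -1.23.

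Brown adipocyte genes were opposite in direction to the 5 adipokine genes that were higher, while Nampt was lower as well. In the enriched environment pool all 8 measured genes were past 2-fold lower, against 9.46% of all genes, and their median was -5.44. They held 0.00394% of all probe signal in the enriched environment pool and 0.266% in the standard environment pool. Ucp1, the uncoupling protein that defines brown fat, had levels of -4.70 in the enriched environment pool and 4.16 in the standard environment pool. Cox8b differed by -6.99 and Cox7a1 by -6.46, and both are also expressed in muscle. Cidea, a droplet protein of brown fat, differed by -5.91, Cpt1b, a carnitine transferase of muscle and brown fat, by -4.97, the coactivator gene Ppargc1a by -2.81, Dio2, which activates thyroid hormone, by -2.20 and Prdm16, which directs brown fat identity, by -1.59. Carcinoma epithelium markers, all well above background on both arrays, were past 2-fold higher in 10 of 10 genes, against 5.70% of all genes. Their median was 1.96. They held 1.12% of all probe signal in the enriched environment pool and 0.274% in the standard environment pool. The mucin gene Muc4 and the mesothelin gene Msln were both at 2.43 and the E-cadherin gene Cdh1 at 2.37. The part of these lists in the adipokine differences was not tested.

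No adipokine or receptor gene changed direction over the processing alternatives. Adipoq lay between 2.39 and 2.53, Retn between 2.79 and 3.01, Cfd between 3.10 and 3.46 and Rarres2 between 2.09 and 2.19. Nampt stayed between -0.65 and -0.44, Adipor1 between -0.91 and -0.75 and Adipor2 between 0.05 and 0.48, all short of 2-fold.

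**Figure D4:**
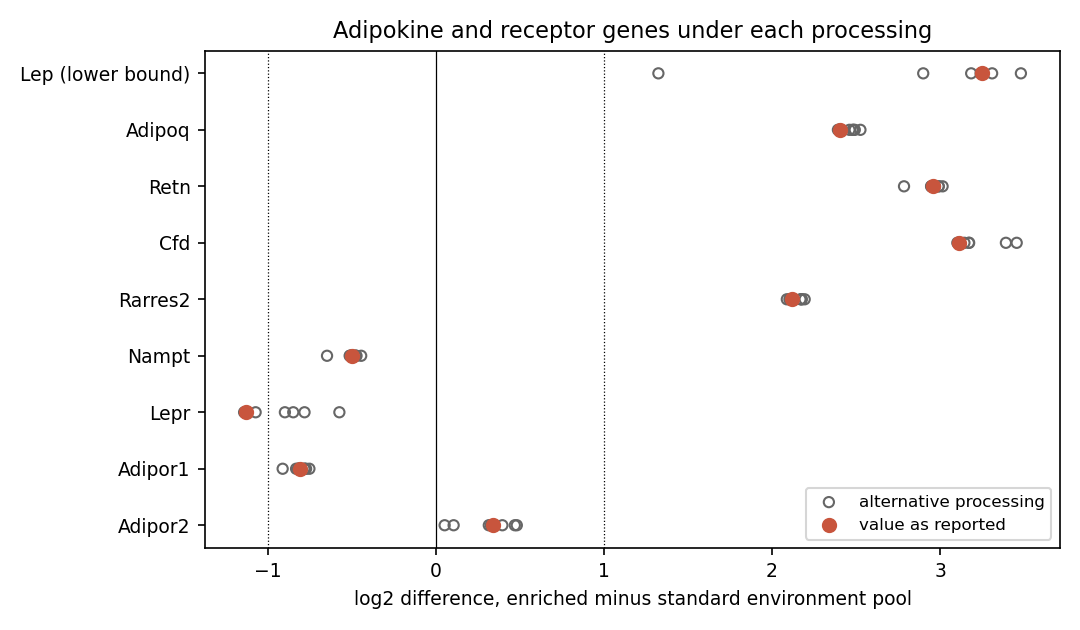
Log2 difference, enriched minus standard environment pool, of each adipokine and receptor gene as reported (red) and under each alternative processing (hollow circles), with dotted lines at 2-fold. No gene changed sign, the Lep bound was 1.32 with normexp, and Lepr lay between -1.14 and -0.57.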

How the data were processed

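The authors deposited 1 Agilent Feature Extraction file per array with a linear intensity per spot, where the submitters' processing notes name version 10.7.1.1. Both arrays lay on 1 slide per the file headers. The processed intensity is background-subtracted and spatially detrended, which changes dim spots most. A table of log2 values per probe was also deposited; its columns correlated with log2 intensities across probes at r = 1.00, with medians of 8.56 (enriched environment) and 8.54 (standard environment), while its scaling and centring are not given in the sources used here. It served as an alternative.

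Levels were log2 processed intensities minus the array's 75th percentile (984 in the enriched, 753 in the standard environment pool). Spots marked as outliers (70 and 66) were left out, spots of a probe averaged, and probes kept where more than 50% of their usable spots were well above background on both arrays (30307 of 41161), as were 77.4% and 77.2% of spots; none was saturated. Probes of a gene were averaged. A gene above background on 1 array only has a bound, set against the higher of the other array's lowest level well above background and the probe's own level. Current symbols came from RefSeq accessions (22951 of 41174 probes); the rest kept the file's name. Probe positions are those of the mm7 design. With 1 array per group there is no test; 2-fold was the threshold. Python 3.11.15, limma 3.58.1 (normexp) and 11 alternatives were used, 1 of them added after seeing the data. Steps were tested on simulated data. Genes and lists were chosen with earlier results of these data known. The rule for names took the 9 genes, partners picked by role whatever their value and, of each list, the 3 largest differences and the genes past 2-fold, up to 8; of the muscle, neutrophil and carcinoma lists the leading genes are given. A few genes that the rule takes are not reported here.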

Additional observations from a re-analysis of the deposited data

How the results depend on the processing

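Of 89 values of the 9 genes under the alternatives, none changed sign and 84 stayed within a tolerance. This was 0.17, the median SD between probes over all genes, or the gene's own SD between probes where larger. For Lep it was the SD of 0.66 between spots. The probes of Retn, with an SD of 0.02, and Rarres2, with 0.08, lie closer together than 0.17. For Adipor2 the tolerance, 0.64, was larger than its value of 0.34. Some of the 89 values could not move, so the count of 84 overstates the agreement. Dropping the filter on dim probes left all 9 genes as reported. Among the 9 genes only Lep and Lepr had outlier spots. Lep, Adipoq and Cfd had 1 probe each, so the brightest probe was the same probe. With normexp, the Lep bound was 1.32, Retn 2.79 and Lepr -0.57. Cfd was 3.46 with quantile normalization and 3.39 in the deposited log2 table, which gave no value for Lep. The count of genes at least 2-fold higher was 4 or 5. The count at least 2-fold lower, 1 as reported, was 0 with normexp, quantile normalization, the brightest probe per gene and the deposited table, and 2 at 1.5-fold, where 15.0% of all genes were higher and 18.2% lower. The chemerin median was -0.16 with quantile normalization and in the deposited table and -0.69 without a filter on dim probes. The resistin median was -0.83 with normexp, quantile normalization and the brightest probe and -0.84 in the deposited table. The complement median was -0.14 with normexp, 0.41 with quantile normalization and 0.44 in the deposited table. The median of other adipokines was 0.68 with the brightest probe. The adipocyte median was 0.16 without a filter and 0.0026 with the brightest probe. The cause of these shifts was not tested. Over all genes, 1190 were 2-fold higher and 1974 lower as reported, against 669 and 1324 with normexp, 1432 and 1710 with quantile normalization and 1492 and 1763 in the deposited table. Without a filter, 1672 and 3796 of 28785 genes were, in place of 20859. No paired analysis was possible because each housing has 1 pool. Dim signal limits Lep in the standard environment pool and Lepr in both.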

Other observations

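Other cell types that can make or bind adipokines were described by marker lists. Their counts are to be read beside the shares of all genes, 5.70% past 2-fold higher and 9.46% past 2-fold lower. Among 9 macrophage genes, Cd14, a lipopolysaccharide coreceptor, was past 2-fold higher in the enriched environment pool, at 1.16, followed by the mannose receptor gene Mrc1 at 0.97 and the scavenger receptor gene Msr1 at 0.70, and the median was 0.40. Fibroblast and preadipocyte genes split, with 3 of 11 past 2-fold in each direction. The collagen genes Col3a1 and Col1a1 were at 2.96 and 2.02 and Ly6a, a marker of fat cell precursors, at 1.33, whereas the growth factor receptor genes Pdgfrb and Pdgfra were at -1.18 and -1.02 and Dcn at -1.03. Endothelial genes were lower in 7 of 7, while 52.2% of all genes were higher. The endothelial median was -0.70, and the furthest were the receptor genes Tie1 at -1.05 and Tek at -0.88 and the cadherin gene Cdh5 at -0.81. Of 6 measured genes of the skin list, the keratins Krt17 at 4.42, Krt14 at 3.15, Krt79 at 2.13 and Krt5 at 2.01 were past 2-fold higher. Krt10 was at 0.15 and Scd3, of sebaceous glands, at -0.48. The keratin gene Krt1 was not well above background on either array. Mc5r, above background on the enriched environment array only, had a bound of 0.52. Elovl3, which is also a brown fat gene, was lower, with a bound of -4.84. The skin median was 2.07, and 0.74 without the filter on dim probes. Krt1, Krt10, Scd3, Mc5r and Elovl3 were added after their values were seen. The 4 erythroid genes that both arrays measured were all lower, with Slc4a1, the band 3 anion exchanger, at -7.40, the alpha globin gene Hba-a1 at -5.72 and the heme enzyme gene Alas2 at -5.45.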
